A study of Ditylenchus destructor and Heterodera glycines and Meloidogyne incognita with 162 samples.

Results

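A set of 150 of the 18219 genes of the soybean cyst nematode Heterodera glycines was described, chosen because their transcripts were high in the Zygote and 2-cell embryo and low from the 8-cell stage on. The members were selected on measured values. For each gene the median CPM (the count scaled to a library total of 1000000) was taken over the libraries of a stage. The score was log2 of the lower of the Zygote and 2-cell medians plus 1, over the highest median from the 8-cell stage to the larva plus 1. A score above 0 was found for 777 genes, and the 150 highest, 0.823% of all genes, were kept. Since Zygote, 2-cell, 8-cell and the later stages fixed the choice, the early stages are not tested against the late ones. Where a test across all genes includes a stage of the rule, the members' counts in it are a description. The 4-cell and Comma libraries did not enter the rule.

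The study followed embryogenesis in 3 plant-parasitic nematodes by sequencing the RNA of single eggs. The H. glycines eggs came from the strain Hg5#, were freed mechanically from cysts on soybean roots, surface-sterilised with sodium hypochlorite and purified over sucrose, and were picked one by one under the microscope by their form. No other treatment is named, and the libraries of the 11 stages, from Zygote through the bent (Comma), elongating (1.5-fold, 2-fold) and Moving embryo to the first-stage larva (L1), were made from polyadenylated RNA with Smart-seq2, a full-length method with no molecular identifiers. The labels name no mother, culture or day of the eggs, so the spread between libraries is the spread between these eggs and may be partly technical. The paper reports that more eggs were sampled per stage than the replicates kept after filtering, so the libraries are a selection of those sampled.

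In animal embryos the first divisions run on RNA and protein that the mother laid down in the oocyte, while the genome of the embryo is largely silent. Part of the maternal RNA is then removed by decay factors from the mother and, later, by products of the embryo, as the embryo starts its own transcription. In Caenorhabditis elegans, maternal transcripts are lost from somatic cells during the cleavage divisions, and transcription of the embryo's genes is already detected in early cleavage. The gene IDs of H. glycines are not paired with names or functions in the sources used here, so the members are given by ID and position.

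Of the 54 H. glycines columns, 53 were used, because Moving replicates 1 and 2 differed in only 17 genes and replicate 2 was left out, which gives 5 libraries a stage and 4 at 2-fold and Moving. The totals ranged from 181109 to 10955776 counts per library. Zygote replicate 3 was the shallowest, at 181109 counts, and 8-cell replicate 3 held 750757. A single count is worth 5.52 CPM in Zygote replicate 3, so low values in that library are coarse. A value of 0 means only that no count was found at the depth of that library. CPM is relative, so fewer copies of these transcripts and more RNA from other genes cannot be told apart.

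The members were not uniform in their early levels, and the Zygote was not the highest stage of most of them. In 104 of the 150 members the Zygote median lay below the 2-cell median, by a median of 5.54-fold, and 56 of them were at least 5-fold higher at 2-cell. In the other 46 the Zygote median was the higher one, with a median 2-cell level 0.775 times that of the Zygote. Among 5303 genes with at least 10 CPM in both stages, 37.6% had the lower median in the Zygote, against 69.3% of the members. The 104 genes are called 2-cell-high and the 46 genes Zygote-high here. With Zygote replicates 3 and 5 left out of the choice, 59 of the 150 genes then chosen had the lower median in the Zygote, so the share of such genes rests on those libraries. The split was made after the values were seen, so counts and medians by group are descriptions throughout. All of the 50 highest scores belonged to 2-cell-high genes, and the Zygote-high scores reached at most 2.03.

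The 2-cell-high genes held a share of the RNA that changed from library to library. In the Zygote they took 0.586%, 1.87%, 9.83%, 0.449% and 7.01% of the counts of replicates 1 to 5. In the 2-cell embryo they took 9.10%, 12.8%, 11.8%, 16.2% and 22.9%. Every 2-cell library but replicate 1 thus lay above all 5 Zygote libraries. In the 4-cell embryo the shares were 13.2%, 0.153%, 11.2%, 0.317% and 18.3%, so that replicates 1, 3 and 5 lay in the range of the 2-cell embryos and replicates 2 and 4 lay near the 8-cell range of 0.0765% to 0.271%. No 4-cell library lay between 0.317% and 11.2%. From 24-44 cell to L1, the highest share was 0.488%, at Comma.

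The Zygote-high genes changed in small steps. They took 0.624% to 0.910% of the counts in the Zygote libraries, 0.376% to 0.688% at 2-cell and 0.345% to 0.705% at 4-cell. At 8-cell they took 0.196% to 0.380%, and at L1 0.0720% to 0.109%. The ranges of neighbouring stages overlapped from Zygote to 8-cell, while all L1 libraries lay below all 8-cell libraries. In 4-cell replicates 2 and 4, where the 2-cell-high share was lowest, the Zygote-high share was 0.345% and 0.705%, the lowest and the highest of the 5.

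**Figure D1:**
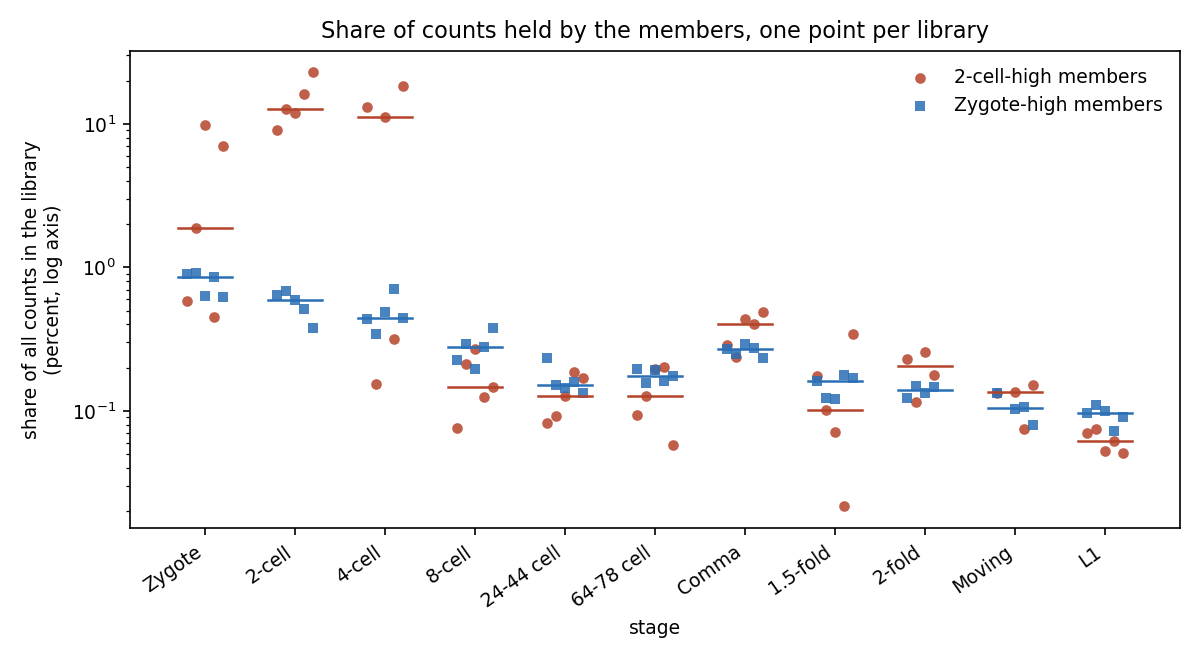
Share of all counts (percent, log axis) held by the 104 2-cell-high genes (circles) and the 46 Zygote-high genes (squares), one point per library with replicates 1 to 5 from left to right and lines at the stage medians. The 2-cell-high shares at 4-cell are 11.2% to 18.3% in 3 libraries and 0.153% and 0.317% in the other two, while the Zygote-high shares there lie between 0.345% and 0.705%.

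All members together took a mean of 4.73% ± 4.11 (SD, n = 5) of the counts at Zygote, 15.1% ± 5.18 (SD, n = 5) at 2-cell and 9.13% ± 8.06 (SD, n = 5) at 4-cell. The mean was 0.440% ± 0.090 (SD, n = 5) at 8-cell and 0.156% ± 0.020 (SD, n = 5) at L1. The SD at Zygote and 4-cell was nearly as large as the mean, so these means do not stand for a typical library.

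HG13377 (contig_185, 1645561 to 1652387, minus strand) took the most counts of the 2-cell-high genes. Its level was 766, 4327, 20386, 711 and 12298 CPM in Zygote replicates 1 to 5, and 18898, 24792, 25973, 37054 and 58698 CPM in the 2-cell libraries. At 4-cell it was 27087, 39.2, 21441, 181 and 38602 CPM, and at 8-cell 8.48, 190, 424, 0.687 and 58.4 CPM. All 2-cell libraries but replicate 1 lay above all Zygote libraries, and 4-cell replicates 2 and 4 lay within the 8-cell range. From 24-44 cell to L1 its libraries lay between 1.99 and 887 CPM.

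HG06828 (contig_097, 571867 to 572444, minus strand) had a Zygote range of 153.3 to 12252 CPM and a 2-cell range of 13228 to 31566 CPM. Its 4-cell libraries were at 16789, 35.3, 13662, 115 and 28456 CPM. Per kb of genomic span its 2-cell median was 36822 CPM, against 3804 CPM for HG13377, and 14229 CPM for HG07559 (contig_105, 164564 to 165002, minus strand). HG08830 (contig_130, 366812 to 370042, minus strand) and HG07163 (contig_099, 1357338 to 1365309, plus strand) complete the 5 members with the highest level in the lower of their Zygote and 2-cell medians. HG08830 was at 11856, 15.8, 13580, 61.1 and 20917 CPM in the 4-cell libraries, and HG07163 at 5059, 12.9, 4990, 77.4 and 5685 CPM. In each of these genes replicates 2 and 4 were the lowest at 4-cell and stood far below the other three.

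**Figure D2:**
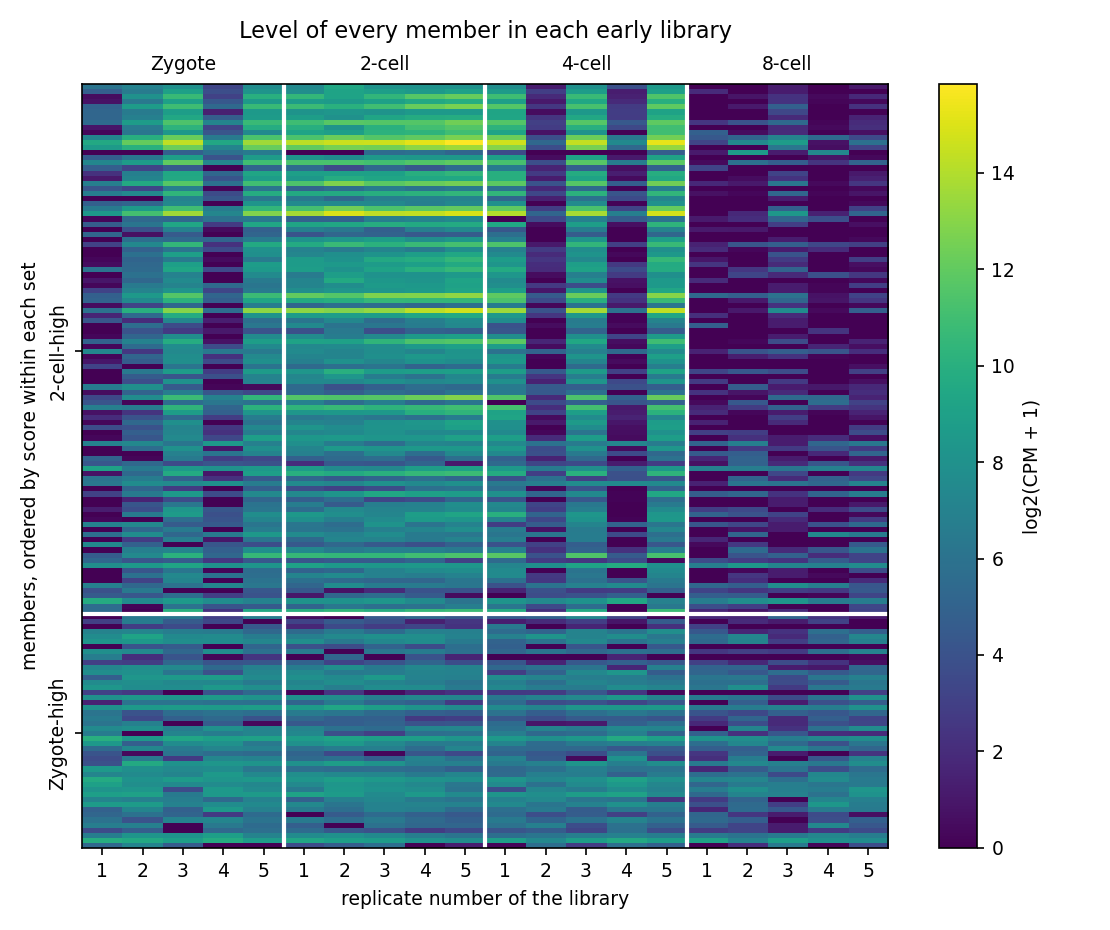
Level of all 150 members, log2(CPM + 1), in the 20 libraries of the first 4 stages, with 2-cell-high genes above the white line and Zygote-high genes below it, each ordered by score from top to bottom. The 2-cell-high block is dark in Zygote replicates 1 and 4 and in 4-cell replicates 2 and 4, and the Zygote-high block shows no such columns.

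The pattern of single libraries was shared across the 2-cell-high genes. In the Zygote, 81 of the 104 had replicate 1 and 87 had replicate 4 among their 2 lowest libraries, and the highest library was replicate 3 in 65 and replicate 5 in 24. At 4-cell, 98 had replicate 2 and 91 had replicate 4 among their 2 lowest. The ratio of the highest to the lowest 4-cell library, after adding 1 CPM, had a median of 207 for the 2-cell-high genes, against 4.12 for the Zygote-high genes and 3.59 for the 5303 genes. In the Zygote the same ratio was 91.6, 6.99 and 6.07 for these groups in that order, and in the 2-cell libraries 2.94, 3.52 and 3.18. The widest spread of the 2-cell-high genes was thus at Zygote and 4-cell, and it was not seen at 2-cell. At 8-cell the ratio was 9.01, 9.93 and 4.69, and at Comma 23.7, 15.6 and 16.1. Whether the embryos differed in age within the stage, in their label or in their handling was not tested.

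The highest score, 5.74, was that of HG06090 (contig_085, 205540 to 207440, plus strand). It was at 68.1, 131, 248, 9.07 and 205 CPM in the Zygote libraries and at 174, 683, 283, 264 and 268 CPM at 2-cell. At 8-cell it was at 0 in replicates 1, 2 and 4 and at 1.33 and 1.15 CPM in replicates 3 and 5. The other 9 of the 10 highest scores belonged to HG11688, HG10759, HG10594, HG01880, HG06932, HG01762, HG04606, HG10758 and HG01418, and the tenth score was 3.72. In 4-cell replicates 2 and 4 these 10 genes were at 0 to 20.8 CPM, and in the other 4-cell libraries at 219 to 3793 CPM.

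The 3 last members were HG12238, HG11976 and HG14655, with scores of 0.904, 0.903 and 0.898. The next genes, just outside, were HG12031, HG17348 and HG01782 with scores of 0.895, 0.891 and 0.881. HG12031 showed the 2-cell-high pattern, at 60.2 CPM (median) in the Zygote and 2382 CPM at 2-cell, and at 2451, 42.1, 2207.5, 20.6 and 3100 CPM at 4-cell. The border of the set therefore cuts through both kinds of gene.

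Zygote and 2-cell were compared with edgeR's quasi-likelihood test over all genes. Both stages entered the rule through their lower median, and the order of their medians split the members, so the counts of members below show the choice again and nothing is read from them. All 150 members were tested among 7463 genes, and 0 genes (0%) passed an adjusted p of 0.05. The median log2 difference (2-cell over Zygote) was 1.64 for the 2-cell-high genes and -0.33 for the Zygote-high genes, against -0.03 for all genes tested. At an unadjusted p under 0.05, 3.75% of all genes tested were higher at 2-cell, beside 23 members (15.3%), all of them 2-cell-high by the way the split was made. Lower at 2-cell by that measure were 1.89% of all genes and 2 members, both Zygote-high. DESeq2 called 2.34% of 9240 genes higher, with 1 member, and 0.498% lower, with 1 member. All 5 of the 2-cell libraries lay above all 5 Zygote libraries in 9 members, against 1.77% of the genes tested, and below them in 3 members, against 1.23%.

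HG01419 was at 0.228, 33.9, 88.3, 0.370 and 95.8 CPM in the Zygote and at 416, 270, 741, 907 and 1441 CPM at 2-cell, and the stages did not overlap. The edgeR estimate was a log2 difference of 4.44 (SE 1.16). HG10643 (contig_155, 755747 to 756540, minus strand) was at 374, 235, 171, 212 and 78.3 CPM in the Zygote and at 54.5, 47.9, 49.6, 44.6 and 25.8 CPM at 2-cell. Its stages did not overlap either, and the log2 difference was -2.09 (SE 0.49). They are named as the members with the smallest adjusted p in each direction, and DESeq2 called both while edgeR called neither.

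The fall of a gene between neighbouring stages is the difference of log2(median CPM + 1), positive where the later stage is lower. From 2-cell to 4-cell the median fall was 0.40 over the members, 0.46 over the 2-cell-high and 0.29 over the Zygote-high genes, and -0.13 over the 5303 genes. In 41 members the 4-cell median was the higher one. Among members with at least 20 CPM at 2-cell, the largest falls were those of HG10230 (5.16), HG15600 (4.70), HG08859 (2.64), HG09598 (2.52) and HG16498 (2.23). HG10230 was at 0, 0, 47.1, 56.7 and 34.8 CPM at 2-cell and at 11.4, 0, 0, 0 and 24.6 CPM at 4-cell, but at 420 and 166 CPM in 8-cell replicates 2 and 4, at 841 and 576 CPM in 24-44 cell replicates 4 and 5 and at 417 and 196 CPM in 64-78 cell replicates 1 and 5. The medians of those stages were low because the other libraries were at or near 0, so this member was not lost from every later embryo. HG15600 was at 225, 5.23, 12.1, 0.593 and 357 CPM in the 4-cell libraries and at 143 to 542 CPM at 2-cell, so that replicate 3 was low beside replicates 2 and 4. The smallest falls, all below 0, were those of HG02356 (-0.94), HG11898 (-0.70), HG16855 (-0.69), HG09477 (-0.60) and HG01763 (-0.58). HG02356 was at 614, 0.453, 198, 1.93 and 154 CPM at 4-cell, so even there replicates 2 and 4 were the lowest.

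In the edgeR test of 2-cell against 4-cell, 0 of 8192 genes (0%) passed, with all members but 1 tested. At an unadjusted p under 0.05, 1.73% of all genes were higher at 4-cell and no member was. Lower were 1.28% of all genes and 7 members (4.70%), of which 3 were 2-cell-high and 4 Zygote-high. DESeq2 called 0.397% of 10583 genes higher, with 0 members, and 0.246% lower, with 1 member. The stages did not overlap, with 4-cell higher, in 0.696% of the genes tested and 0 members, and with 4-cell lower in 0.171% and 2 members. Among members lower at 4-cell, the smallest adjusted p was that of HG17913, at 62.6, 99.2, 115, 47.8 and 150 CPM at 2-cell and 45.5, 42.8, 40.1, 18.7 and 22.4 CPM at 4-cell (log2 difference -1.61, SE 0.52, edgeR adjusted p = 0.9995). Among members higher there it was that of HG15349, at 0.203 to 4.68 CPM at 2-cell and 0.274 to 18.6 CPM at 4-cell (log2 difference 1.42, SE 1.26, edgeR adjusted p = 0.9995). Without 4-cell replicate 3 the difference of HG15349 was 0.60.

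From 4-cell to 8-cell the median fall was 4.03 over the members, 6.57 over the 2-cell-high genes and 1.14 over the Zygote-high genes. Over the 5303 genes it was -0.05. The 8-cell level was under 50% of the 4-cell level in 121 members, 93 of them 2-cell-high. At 8-cell 60 members had a median under 1 CPM, of which 56 were 2-cell-high and 4 Zygote-high. This contrast includes the 8-cell libraries that chose the members, so the size of the fall is partly given by the rule.

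The edgeR test of 4-cell against 8-cell passed 0 of 8061 genes (0%). Of the members, 113 were tested, and 34 of the 37 that the count filter left out were 2-cell-high. At an unadjusted p under 0.05, 5.12% of all genes tested were lower at 8-cell, against 61 members (54.0%), and 3.09% were higher, against 0 members. DESeq2 called 3.56% of 10520 genes lower, with 79 members, 74 of them 2-cell-high, and 1.15% higher, with no member. All 8-cell libraries lay below all 4-cell libraries in 0.831% of the genes tested and in 5 members, and above them in 0.93% and in 0 members. The edgeR count rested on 4-cell replicates 2 and 4. Without replicate 2 it was 47 of 132 members lower at 8-cell, beside 105 of all 8440 genes tested. Without replicate 4 it was 47 of 130 members, beside 101 of 8646 genes. The rule used the 8-cell values, so nothing is read from these counts about the members.

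HG10758 (contig_155, 1323507 to 1324571, minus strand), the member lower at 8-cell with the smallest adjusted p, was at 1197, 6.11, 1016, 9.63 and 1988 CPM at 4-cell and at 0, 0, 2.66, 0.343 and 3.44 CPM at 8-cell, so that the stages did not overlap even with replicates 2 and 4. The log2 difference was -9.99 (SE 1.73), which edgeR did not call. Among the higher ones it was HG17913, at 25.8, 25.9, 176, 72.1 and 35.8 CPM at 8-cell (log2 difference 0.91, SE 0.76), with overlapping stages. Without 8-cell replicate 3 its difference was 0.04.

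**Figure D3:**
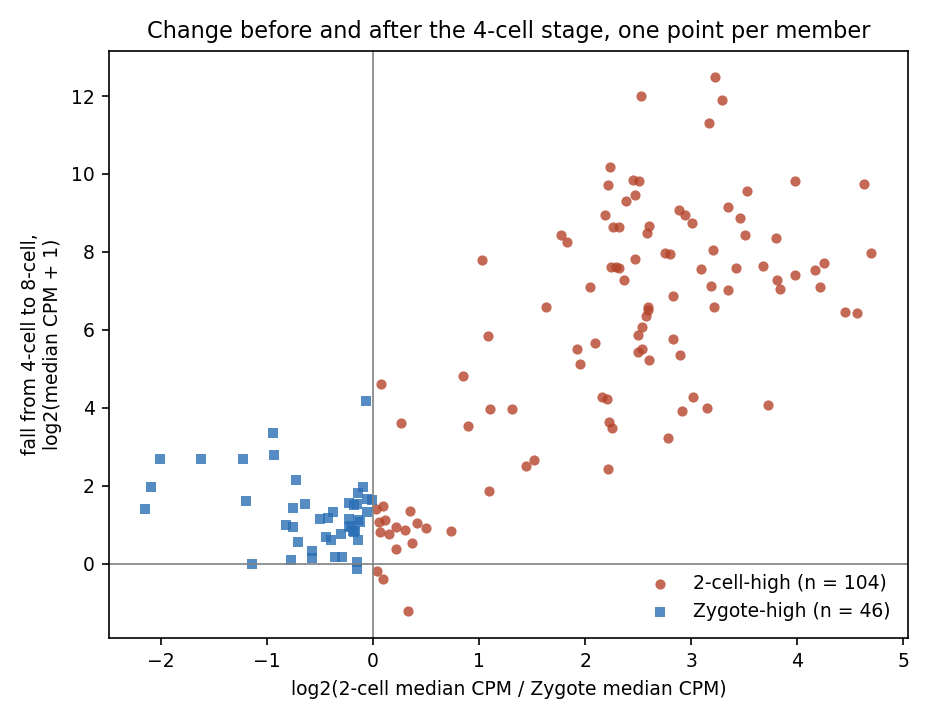
Each point is a member, with log2 of the 2-cell over the Zygote median CPM on the horizontal axis and the fall from 4-cell to 8-cell of log2(median CPM + 1) on the vertical axis. The Zygote-high genes (squares, n = 46) have falls of 4.18 at most, while the 2-cell-high genes (circles, n = 104) reach 12.5.

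Among the Zygote-high genes, HG11976 (contig_172, 765039 to 767064, plus strand) had the highest Zygote median. It was at 946, 740, 469, 876 and 439 CPM in the Zygote, at 674, 498, 439, 253 and 219 CPM at 2-cell and at 467, 167, 451, 764 and 453 CPM at 4-cell. At 8-cell it was at 566, 137, 493, 234 and 204 CPM, overlapping the 4-cell range. Its L1 libraries lay between 2.94 and 8.52 CPM, below every library of the first 6 stages, and its stage medians went from 740 CPM in the Zygote to 3.49 CPM at L1 and neighbouring stages overlapped up to 64-78 cell, while every L1 library lay below every Moving library.

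HG04917 (contig_067, 152183 to 153629, minus strand) went from 245 to 403 CPM in the Zygote and 110 to 235 CPM at 2-cell to 79.3 to 342 CPM at 4-cell and 10.7 to 251 CPM at 8-cell. At 24-44 cell it was at 41.1, 1.35, 4.66, 31.4 and 10.8 CPM. All Zygote libraries lay above all 2-cell libraries, and from 2-cell to 24-44 cell each stage overlapped the next. The medians of the whole Zygote-high group were 134, 92.9, 62.9 and 32.1 CPM over the first 4 stages and 4.74 CPM at L1, and those of the 2-cell-high group were 48.5, 268, 189 and 0.573 CPM and 0.660 CPM at L1.

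**Figure D4:**
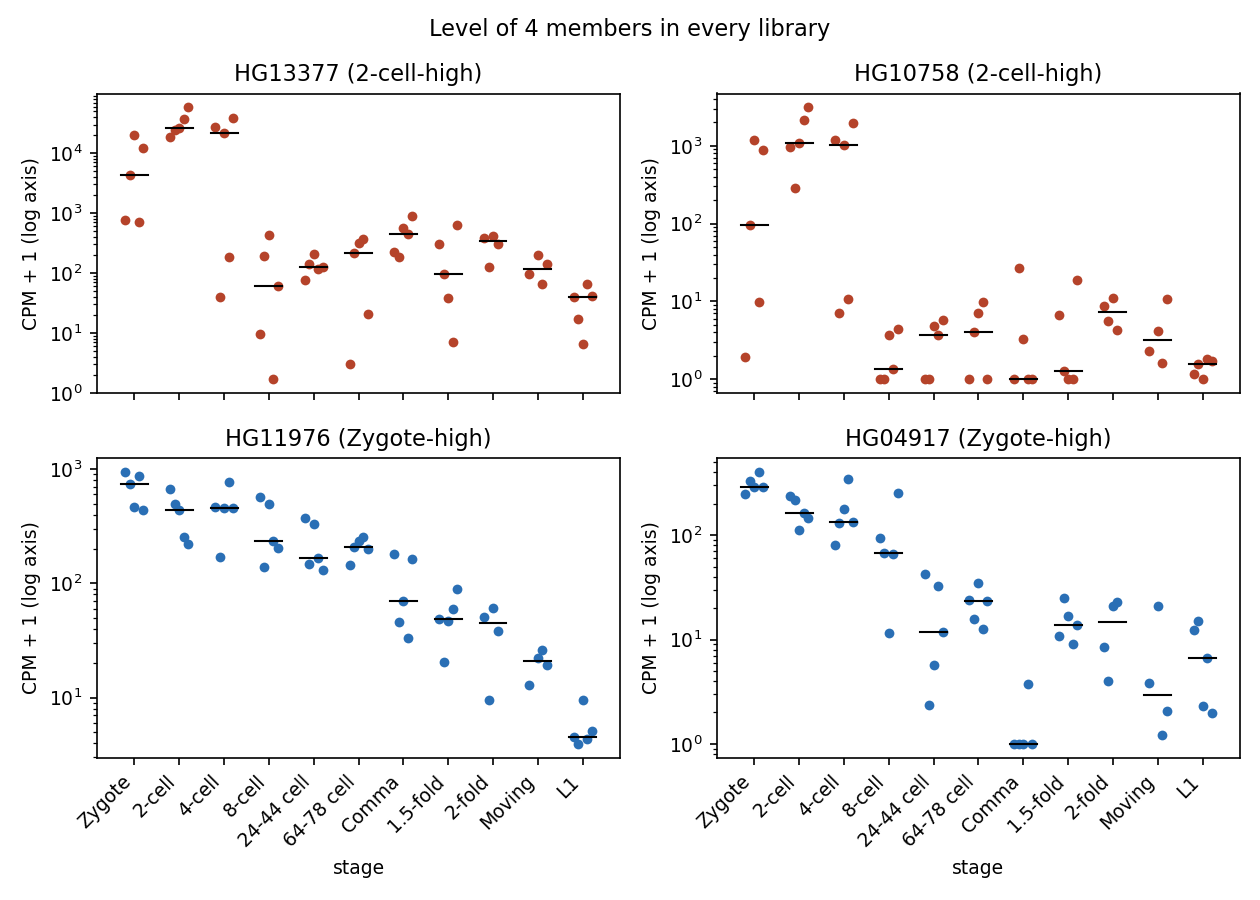
CPM + 1 (log axis) of 2 2-cell-high genes (top) and 2 Zygote-high genes (bottom) in every library by stage, with black lines at the stage medians. HG13377 and HG10758 lie in separate high and low ranges at 4-cell, while HG11976 lies at 439 to 946 CPM in the Zygote and 2.94 to 8.52 CPM at L1, with no such gap at 4-cell.

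After cleavage the 2-cell-high genes did not stay at one low level. Among the late stages of the rule, which leave out Comma, the highest median was at 2-fold for 47 of the 104. It was there for 3 of the 46 Zygote-high genes, and at 8-cell for 21 of them. The late medians fixed the choice of members, so these counts are a description. As a percentage of its own 2-cell median, the median 2-cell-high gene was at 0.0630% at 8-cell, 0.605% at 24-44 cell and 0.747% at 64-78 cell. It was at 2.82% at Comma, above the 1.48% at 2-fold, and at 0.112% at L1. The Comma value is not particular to these genes, since the median of all genes was 15.3 CPM there and 1.62 CPM at 64-78 cell. That of the 5303 genes was lower at Comma, at 43.7 CPM against 91.3 CPM. The Zygote-high genes were at 36.5%, 13.0%, 21.3%, 34.0%, 18.2% and 9.45% at the same stages.

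The low remaining counts of the 2-cell-high genes had proportions near those of the 2-cell embryo in some late libraries and not in others. Across the 104 genes, r of log2(CPM + 1) with the 2-cell median was 0.70 to 0.76 in the 4 libraries of 2-fold, 0.81 and 0.82 in 1.5-fold replicates 1 and 5, and 0.82 in 24-44 cell replicate 3. It was 0.70, 0.70 and 0.73 in 64-78 cell replicates 2, 3 and 4, against 0.03 and 0.01 in replicates 1 and 5 of that stage. In 1.5-fold replicates 2, 3 and 4 it was 0.20, 0.26 and 0.21, and at Comma 0.05 to 0.20. At 8-cell it was 0.67 in replicate 3, against -0.09 to 0.21 in the other libraries. In the other 24-44 cell libraries it was 0.03 to 0.53. At Moving it was 0.25, 0.67, 0.56 and 0.61 in replicates 1, 3, 4 and 5, and at L1 0.26 to 0.34. Across the 46 Zygote-high genes the same r was 0.61 to 0.84 in the 2-fold libraries and 0.65 to 0.82 in the 1.5-fold libraries. It was 0.77 to 0.83 in the 64-78 cell libraries, with 0.80 and 0.77 in replicates 1 and 5, and 0.29 to 0.47 at Comma. A likeness to the 2-cell embryo was thus seen in both groups. At 64-78 cell and 1.5-fold it differed widely between libraries in the 2-cell-high genes and less in the Zygote-high genes. Some libraries with r near 0 had no count for many of the 104 genes, so proportions there are poorly measured. At 0 were 49 genes in each of 64-78 cell replicates 1 and 5, against 12, 10 and 5 in replicates 2 to 4. In 8-cell replicates 1, 2 and 4, 55, 43 and 52 were at 0. In 1.5-fold replicates 2 and 3 and Comma replicates 3 and 4, r was low with 18, 20, 17 and 12 at 0. The r values are across genes within a library, and genes are not independent replicates.

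The ratio of HG06828 to HG13377 followed the split of the late libraries by r only in part. HG06828 was at 70.0%, 127%, 74.6%, 57.4% and 50.5% of the level of HG13377 in the 2-cell libraries, and at 70.2%, 111%, 68.1% and 65.1% at 2-fold. In 64-78 cell replicates 2, 3 and 4 it was at 69.3%, 71.2% and 70.6%, with HG13377 at 214, 317 and 370 CPM. In replicate 1 of that stage, where r was 0.03, HG06828 was also at 71.4%, with HG13377 at 1.99 CPM. That ratio rests on 10 counts of HG06828 and 14 of HG13377. In replicate 5 it was at 14.1%. In 24-44 cell replicate 3, where r was 0.82, it was at 150%, above the 2-cell libraries. At Comma, where HG13377 was at 184 to 887 CPM, HG06828 was at 0 to 23.4% of it, so there the proportions were others. Whether the late counts came from RNA of the embryo or from RNA carried between libraries was not tested.

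The Comma libraries did not enter the rule. The median member was at 11.6 CPM there, beside 4.10 CPM at 64-78 cell and 3.56 CPM at 1.5-fold. The Comma median lay above both neighbours in 92 members (61.3%), against 48.5% of all genes and 27.5% of the 5303 genes, and 31 members (20.7%) were at 0 at Comma, against 23.5% of all genes and 4.64% of the 5303 genes. Over all genes the medians were 15.3 CPM at Comma, 1.62 CPM at 64-78 cell and 3.71 CPM at 1.5-fold. The neighbours were held low by the rule and Comma was not, so these counts are a description.

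The highest Comma medians among members were those of HG13377, HG07163 and HG15331. HG07163 was at 553, 154, 324, 284 and 271 CPM at Comma and at 17.4 to 86.8 CPM at 64-78 cell, with no overlap (log2 difference 1.95, SE 0.60).

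Against 64-78 cell, edgeR called 23.4% of 10149 genes higher at Comma and 19.1% lower. Of the 80 members tested, 9 (11.2%) were called higher and 4 (5%) lower. The rule held 64-78 cell low and left Comma free, which favours members higher at Comma, so no p is given for those. The count of higher members was 4 of 92 without Comma replicate 3, beside 1851 of 10675 genes. Without Comma replicate 4 it was 4 of 88, beside 1822 of 10603 genes, and without Comma replicate 5 18 of 96, beside 2896 of 11367 genes. HG15331 (contig_209, 206674 to 211381, plus strand) was higher at Comma with the smallest adjusted p, at 340, 64.8, 557, 259 and 780 CPM against a mean of 28.6 CPM at 64-78 cell (log2 difference 3.29, SE 0.64). HG04917 fell, being at 0 in 4 Comma libraries and at 2.73 CPM in replicate 4, against 11.7 to 33.9 CPM at 64-78 cell (log2 difference -5.39, SE 1.39, edgeR adjusted p = 0.00717). Without Comma replicate 4 all its Comma libraries are at 0 and the fitted difference is -9.13, so its size depends on a single library and is not a bound.

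The choice was repeated with 1 replicate number left out of every stage, and the new members were then read in the libraries left out. Between 102 and 111 of each new 150 were among the members. A score above 0 in the left-out libraries was reached by 28.0%, 62.7%, 69.3%, 33.3% and 61.3% of the genes for replicate numbers 1 to 5, so with numbers 1 and 4, whose Zygote libraries were low, most genes chosen on the others did not repeat the pattern. The 2-cell level was above the 8-cell level in 142, 135, 136, 138 and 107 of the 150 genes. No share over all genes in the same left-out libraries is given beside these values. They are therefore a description and do not show how far the chosen genes differ from others. The median fall from 2-cell to 4-cell was -0.42, 5.51, 0.05, 5.84 and 0.03 (log2), and from 4-cell to 8-cell 5.87, 0.39, 4.24, 0.44 and 2.95. The low level was thus reached by 4-cell in the libraries numbered 2 and 4 and after it in those numbered 1, 3 and 5, while the median gene was at 132 to 164 CPM at 2-cell and at 0 to 9.17 CPM at 8-cell with every number. The labels name no link between embryos of different stages that share a number.

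The set also depended on the Zygote libraries with the highest shares. With Zygote replicates 3 and 5 left out, an alternative chosen after the data were seen, 96 of the 150 members were chosen again, 53 of the 104 2-cell-high and 43 of the 46 Zygote-high genes.

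Members lay on 64 of the 238 contigs that carry genes. The most were on contig_025, with 12 of 443 genes (2.71%), of which 11 were 2-cell-high, and on contig_084 7 of 185 genes (3.78%) were members, all 2-cell-high. The median genomic span, introns included, was 1478.5 bp for the 2-cell-high and 2086.5 bp for the Zygote-high genes, against 2044 bp for all genes and 2755 bp for the 5303 genes.

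On the sequence 19 members lay next to another member, in 9 runs, and all 19 were 2-cell-high. The longest run was HG09363, HG09364 and HG09365 (contig_138, 314311 to 322611, all on the minus strand), at 422, 273 and 127 CPM (medians) at 2-cell and at 0.573, 0 and 1.33 CPM at 8-cell. HG10758 and HG10759 (contig_155, 1325939 to 1327003) lay 1367 bp apart on opposite strands, each spanning 1065 bp, with 2-cell medians of 1084 and 1436 CPM. Other pairs were HG01418 with HG01419, HG01762 with HG01763, HG01933 with HG01934, HG01992 with HG01993, and HG05958 with HG05959. Of the 10 neighbouring pairs, 6 were divergent, 1 convergent and 3 on the same strand, while 25.1%, 25.3% and 49.6% of all 17981 neighbouring pairs were of these kinds. Smart-seq2 reads do not keep the strand, and near-identical neighbours could share reads, so values of neighbours are not independent.

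The same rule was applied to the tables of Ditylenchus destructor (15798 genes) and Meloidogyne incognita (45320 genes) to set the H. glycines values beside them. The 150 genes chosen there had scores of 4.02 to 1.30 in D. destructor and 4.74 to 1.37 in M. incognita, against 5.74 to 0.898 in H. glycines. The lower median lay in the Zygote for 65 and 54 of the 150 genes, against 104 in H. glycines. The highest 4-cell share of counts was 1.41 times the lowest in D. destructor and 2.25 times in M. incognita, against 37.6 times in H. glycines. The median falls from 2-cell to 4-cell and from 4-cell to 8-cell were 0.94 and 0.84 (log2) in D. destructor and 1.86 and 0.51 in M. incognita, against 0.40 and 4.03 in H. glycines. In H. glycines the 4-cell libraries lay in a high and a low range, so its falls rest on which range holds the median. Read in the left-out libraries numbered 2 and 4, the falls were 5.51 and 0.39, and 5.84 and 0.44. With numbers 1, 3 and 5 they were -0.42 to 0.05 and 2.95 to 5.87. The tables differ in their number of genes and the species were not tested against each other.

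**Figure D5:**
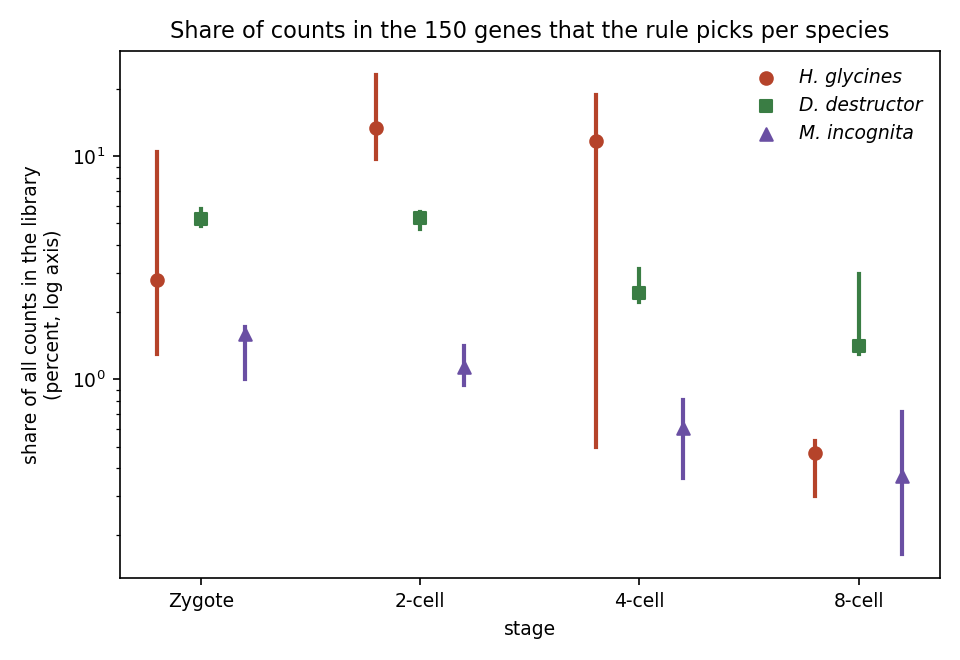
Share of all counts (percent, log axis) in the 150 genes chosen by the same rule in each species, with markers at the stage median and lines from the lowest to the highest library. At 4-cell the H. glycines line runs from 0.498% to 18.7%, the D. destructor line from 2.22% to 3.14% and the M. incognita line from 0.361% to 0.811%.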

How the data were processed

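Single eggs of H. glycines, D. destructor and M. incognita were sequenced in 162 libraries. The authors deposited raw counts (whole numbers, not normalized) for every gene, made by trimming with fastp (version 0.20.1, from the submitters' processing notes), aligning with HISAT2 and counting with HTSeq. The assembly version of the contigs is not given in the sources used here. The members and lists were chosen with earlier results of these data known. CPM was computed from the total of each column, and medians were taken over the libraries of a stage.

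Pairs of stages were tested in edgeR 4.0.16 (R 4.3.3), using the libraries of the 2 stages, TMM, filterByExpr and the quasi-likelihood test, with Benjamini-Hochberg adjustment over all genes tested and a threshold of 0.05. The standard error was taken from the F statistic. The script was tested on simulated data. Alternatives were DESeq2 1.42.0, a fit of all stages together, a block for the replicate number, RLE scaling, unfiltered genes and a 2-fold minimum change. Others were thinning to the smallest library total, each library left out, pseudocounts of 0.1 and 10, means and TMM-scaled CPM. The choice was also made with Comma and with Moving replicate 2 included. Thinning used 181109 counts for the choice of members and for Zygote against 2-cell. Each other pair of stages was thinned to the smallest total of its own libraries. Leaving out Zygote replicates 3 and 5 was added after the data were seen. Named genes were the 10 highest scores, the 5 highest levels, the 5 largest and 5 smallest falls from 2-cell to 4-cell, the 3 highest at Comma, the 3 on each side of the border, neighbouring members in up to 6 runs and the smallest adjusted p per comparison and direction. Python (version 3.11.15) with pandas (version 2.3.3) was used for the rest. Genes of other lists and sequences were not analysed here.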

Additional observations from a re-analysis of the deposited data

Results flagged for a closer look

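In 53 sets of 4 or 5 libraries, Dixon's ratio at the 95% level marked 5 values, where chance marks about 1 in 20. At 8-cell, replicate 3 stood apart from the other 4 libraries in 4 of the 2-cell-high genes with the most counts. It was at 339.7 CPM for HG06828, 133.2 CPM for HG07163, 71.93 CPM for HG07559 and 203.8 CPM for HG08830. That library held 750757 counts, the fewest of its stage. At 24-44 cell, replicate 1 stood apart with a share of 0.2323% of its counts in the Zygote-high genes.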

How the results depend on the processing

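No tested difference reported here changed its direction under any alternative run. The members chosen again numbered 102 to 132 when libraries were left out, and those with the lower median in the Zygote 90 to 135. With Zygote replicates 3 and 5 left out they were 96 and 59. Mean shares ranged over 3.30% to 5.59% at Zygote, 13.1% to 16.5% at 2-cell, 6.72% to 11.3% at 4-cell, 0.419% to 0.475% at 8-cell, 0.609% to 0.670% at Comma and 0.149% to 0.161% at L1 when a replicate was left out. A pseudocount of 10 in the choice gave 0.725% at 8-cell, 0.778% at Comma and 0.274% at L1, means in place of medians gave 0.180% at 8-cell and 0.111% at L1, and TMM-scaled totals gave 0.298% at Comma and 0.214% at L1. With a replicate left out, whether read in the libraries kept or in those left out, the fall from 2-cell to 4-cell was -0.42 to 5.84, below 0 in the left-out libraries numbered 1, and that from 4-cell to 8-cell 0.39 to 5.93 (log2).

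For Zygote against 2-cell, DESeq2 called 1 member higher and 1 lower, beside 216 and 46 of all 9240 genes. The test with no filter called 7 members higher, beside 14 of 14693 genes. For 2-cell against 4-cell, DESeq2 called 1 member lower, beside 26 of 10583 genes. For 4-cell against 8-cell, DESeq2 called 79 members lower, no filter 75 and all libraries in 1 fit 39, and leaving out a library gave 0 to 47. For 64-78 cell against Comma, DESeq2 called 40 of 143 members higher, beside 6112 of 15834 genes. RLE factors gave 14 of 80, beside 2854 of 10149 genes, and thinning 15 of 39, beside 1889 of 6410 genes. With a library left out, 4 to 18 members were called higher. Members called lower were 7 with DESeq2, beside 2087 of 15834 genes, and 11 of 150 with no filter, beside 2457 of 17602 genes. All libraries in 1 fit gave 7 of 80, beside 2442 of 10149 genes, and thinning 1 of 39, beside 1324 of 6410 genes. Leaving out a library gave 3 (64-78 cell replicate 3, with 1612 of 11265 genes) to 7 members (Comma replicate 1, with 2037 of 11376 genes). The cause was not tested. The labels name no pairing of samples by replicate number. Same-numbered libraries of neighbouring stages correlated by -0.08 to 0.22 in their deviations. Libraries with different numbers were not set beside them, so these values cannot decide whether the numbers pair samples. With the replicate number as a block, 23 of 113 members were called lower from 4-cell to 8-cell, beside 43 of 8061 genes. No other count of members moved by over 1.5 times with that block. Counts of genes at the low depth of Zygote replicate 3 and 8-cell replicate 3 are imprecise, and 5 libraries a stage limit every test here.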
